A study of Mus musculus with 30 samples.

Results

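The comparison described here sets peripheral blood leukocytes taken 1 day after cyclophosphamide against those of untreated mice, all of strain DBA/2. It holds 8 of the 15 blood samples of the series: 4 untreated samples and 4 samples drawn on day 1 after an intraperitoneal injection of 83 mg per kg, each measured in 2 technical replicate columns (16 columns in all). Samples were chosen by their titles, and the other 7 samples, 4 at day 2 and 3 at day 5, enter only the estimate of spread and the values given side by side. Nothing in the labels gives the sex or age of the animals, whether a sample pools several mice, or whether the untreated mice received a vehicle injection. Blood RNA carried Cy5 and was hybridised together with a Cy3-labelled reference of pooled bone marrow cells, so each value is a log2 ratio of blood leukocytes over marrow. The base of the logarithm is not stated and was taken as 2.

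Cyclophosphamide is a prodrug. Cytochrome P450 enzymes, mainly of the liver, open the way to an active nitrogen mustard that cross-links DNA, while aldehyde dehydrogenases and glutathione conjugation remove its reactive intermediates. Dividing precursors of the marrow and lymphocytes are sensitive to it, and the blood loses cells over the following days. Platelets and their fragments of megakaryocyte RNA circulate with the leukocytes. In bulk RNA of blood, fewer cells of a type and less RNA per cell cannot be told apart, and a gene's ratio can also move when other cells make up more or less of the sample.

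At day 1, 6 of 12 tested platelet genes and the growth factor Ereg were called higher in blood leukocytes. Of 23 tested integrins and homing receptors 3 were called higher and 1 lower. The higher ones were Itga6, Itgb1 and Itga2b, the last of them also counted among the platelet genes. Called lower were 3 of 18 monocyte genes, 3 of 13 B cell genes and 1 of 10 mature neutrophil genes. The latter was the surface protein Cd177, while the median change of its list was 0.29. Among the called genes with a symbol, Pcp4l1 had the largest rise, with a log2 change of 2.16, and Myf6 and Cd177 had the largest falls, both at -1.25. Of 7160 features tested, where a feature is a gene symbol or an unnamed probe, 263 were called by limma at an adjusted p under 0.05 (3.67%), 135 higher (1.89%) and 128 lower (1.79%). Of the called features, 195 carry a gene symbol, 107 higher and 88 lower. The other 68 are probes without a single symbol, among them the feature with the largest fall of all, -2.37. In 1244 features (17.4%) the 4 day 1 samples and the untreated samples did not overlap, and the median change over all tested features was 0.03. An unadjusted p under 0.05 was reached by 1413 features (19.7%). After quantile normalization of the columns the calls were 167 higher and 252 lower, so that 39.9% of the calls were rises against 51.3% with the deposited scaling.

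**Figure D1:**
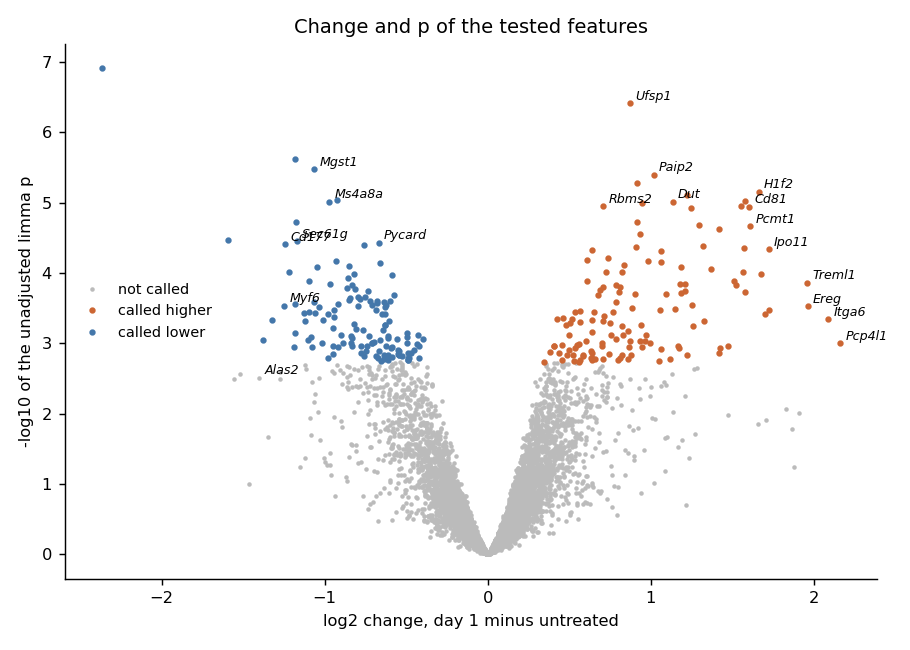
Each point is 1 of the 7160 tested features, with its log2 change (day 1 minus untreated) on the horizontal axis and -log10 of the unadjusted limma p on the vertical axis. Called features lie on both sides in near equal numbers, 135 higher and 128 lower, and Ufsp1 has the smallest p among the named genes.

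The 4 day 1 samples resembled each other more than the untreated ones did. Across features the correlation between samples had a median of 0.874 within day 1, 0.764 within the untreated group and 0.720 between them. The 2 technical columns of a sample correlated at 0.835, 0.870, 0.860 and 0.950 untreated and at 0.922, 0.925, 0.950 and 0.896 at day 1. The part of technical noise in the lower untreated correlations was not tested. Day 1 replicate 3 stood nearest to the untreated samples among the called features. It was the lowest of the day 1 samples in 98 of the 133 higher features with 4 day 1 values (73.7%), and the highest in 90 of 125 lower ones (72.0%). Among features that were not called it was the lowest in 32.7% and the highest in 26.9%. This sample also had the fewest probes with a value, 46.3% and 47.2% in its columns against 59.1% to 69.9% in the other day 1 columns, and the narrowest spread, with a median absolute deviation of 0.21 against 0.28 to 0.30. Whether that difference sets its place was not tested. Without it 400 features were called, and with any other of the 8 samples left out the count lay between 42 (without day 1 replicate 4) and 154 (without untreated replicate 1). Of the 73 called genes that the naming rule picked, 19 kept their call with each of the 8 samples left out in turn. The other 54 lost it without 1 or more of them. The samples that ended their calls are named for some of these genes, and elsewhere only counts per list or none are given.

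Of the 23 platelet and megakaryocyte genes on the array, 12 had enough values to be tested, and 6 of these were called higher and 0 lower. With the deposited scaling all 12 changes were above 0, and the median change was 1.11 against 0.03 over all features. Among the members not tested, Itgb3 had a value in 2 samples of each group and Gp9 in 1 untreated sample. The median ratio of the list lay between 1.06 and 1.70 in the untreated samples and between 2.45 and 3.53 at day 1. The called members encode surface proteins and a granule protein of platelets: Treml1, a receptor kept in platelet granules, Itga2b, the alpha chain of the fibrinogen receptor, the protease-activated receptors F2rl2 and F2rl3, which take part in the thrombin response, P2rx1, an ATP-gated channel, and Clu, which encodes clusterin. Promoter windows of these genes are shown because the genes moved together and because megakaryocyte genes are textbook targets of GATA and ETS factors. RefSeq promoter tables for build GRCm38.p6 held 5 of the 6 genes, and the 250 bases before the start site are given here 5′ to 3′ on the strand of the gene. Capitals mark matches to short words of those factor families, searched on both strands. For the GATA family the word was AGATAA, and for the ETS family it was AGGAAG. On the other strand the former reads TTATCT.
Itga2b (chr11:102469884-102470133, minus strand): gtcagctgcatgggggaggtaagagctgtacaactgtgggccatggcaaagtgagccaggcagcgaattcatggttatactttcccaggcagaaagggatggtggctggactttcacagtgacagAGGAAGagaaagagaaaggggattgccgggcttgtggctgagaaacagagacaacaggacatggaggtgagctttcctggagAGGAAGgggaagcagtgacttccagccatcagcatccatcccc
Treml1 (chr17:48359666-48359915, plus strand): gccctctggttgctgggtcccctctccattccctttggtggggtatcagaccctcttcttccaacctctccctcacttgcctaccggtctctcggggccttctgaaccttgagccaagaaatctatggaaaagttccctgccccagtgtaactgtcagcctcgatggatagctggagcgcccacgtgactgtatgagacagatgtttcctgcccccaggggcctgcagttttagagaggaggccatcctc
F2rl2 (chr13:95696670-95696919, plus strand): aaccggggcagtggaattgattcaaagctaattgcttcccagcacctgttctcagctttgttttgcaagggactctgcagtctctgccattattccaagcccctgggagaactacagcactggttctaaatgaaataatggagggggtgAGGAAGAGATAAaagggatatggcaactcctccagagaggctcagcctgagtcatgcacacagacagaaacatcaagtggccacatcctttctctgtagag
F2rl3 (chr8:72761409-72761658, plus strand): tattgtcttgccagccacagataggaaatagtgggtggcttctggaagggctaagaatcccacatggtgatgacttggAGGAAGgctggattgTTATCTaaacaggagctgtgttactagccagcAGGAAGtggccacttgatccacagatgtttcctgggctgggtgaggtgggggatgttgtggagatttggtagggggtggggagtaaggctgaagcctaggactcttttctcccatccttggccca
P2rx1 (chr11:72998895-72999144, plus strand): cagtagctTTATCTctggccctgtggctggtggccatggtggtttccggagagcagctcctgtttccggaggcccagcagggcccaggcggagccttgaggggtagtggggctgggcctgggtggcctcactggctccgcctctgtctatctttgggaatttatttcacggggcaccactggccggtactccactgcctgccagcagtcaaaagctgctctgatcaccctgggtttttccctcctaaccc
AGATAA was found in 3 of the 5 windows and in 9.99% of 32851 promoter windows of the same length, and AGGAAG in 3 of the 5 and in 29.5%. A match is a string of letters and not a measured binding site.

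Treml1 separated the groups by the widest margin of the called platelet genes. Its log2 ratios were 1.09, 1.83, 1.66 and 2.06 in the untreated samples and 3.81, 3.70, 3.53 and 3.41 at day 1, with no overlap. The change was 1.96 ± 0.39 (SE), with a limma adjusted p = 0.017 that reached 0.060 when day 1 replicate 1, 2 or 4 was left out in turn, and after quantile normalization it was 1.22 (adjusted p = 0.066). Itga2b, whose promoter carries the ETS-type word at 125 and 43 bases before the start, had 2.62, 2.57, 2.79 and 2.15 untreated and 3.11, 4.29, 4.07 and 4.13 at day 1. Day 1 replicate 1 lay well below the other treated samples and still above every untreated one, and the change was 1.37 ± 0.26 (SE, limma adjusted p = 0.014). Its call was lost without untreated replicate 4, day 1 replicate 2 or day 1 replicate 4, with adjusted p up to 0.056. After quantile normalization the change of Itga2b was 0.58 (adjusted p = 0.23), and with columns scaled to one spread the call was lost too (adjusted p = 0.17).

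The receptors for proteases and nucleotides followed. F2rl2 measured 0.58, 0.47, 1.18 and 0.63 in untreated samples and 2.00, 2.37, 1.68 and 2.13 at day 1, a change of 1.33 ± 0.30 (SE, limma adjusted p = 0.027). In its promoter the GATA-type word directly follows the ETS-type word, at 95 and 101 bases before the start. F2rl3 had a smaller change of 0.56 ± 0.12 (SE, adjusted p = 0.023), from 0.15, 0.17, 0.13 and -0.22 to 0.57, 0.60, 0.71 and 0.61, again without overlap. P2rx1 went from 1.03, 0.40, 1.60 and 1.50 to 2.59, 3.16, 1.91 and 2.77, a change of 1.48 ± 0.37 (SE, limma adjusted p = 0.040). The gap between its groups was narrow, set by untreated replicate 3 and day 1 replicate 3. With 1 sample left out, F2rl2 stayed called only without untreated replicate 3 or day 1 replicate 3, F2rl3 only without untreated replicate 1, untreated replicate 2 or day 1 replicate 3, and P2rx1 only without day 1 replicate 3. Their limma adjusted p otherwise reached 0.098, 0.077 and 0.14. P2rx1 had a change of 1.02 after quantile normalization (adjusted p = 0.064).

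Clu measured 3.37, 3.27, 3.69 and 2.94 in the untreated samples and 5.51, 5.08, 5.08 and 4.39 at day 1. The change of 1.70 ± 0.38 (SE, limma adjusted p = 0.024) fell to 0.27 after quantile normalization (adjusted p = 0.66), and the call was also lost without untreated replicate 2 or 4 or day 1 replicate 1 or 2 (up to 0.097). Pf4, a chemokine of platelet granules, had close untreated values of 2.25, 2.17, 2.17 and 2.32, and 4.43, 3.74, 3.81 and 3.77 at day 1. It was not called when the spread came from all 15 samples (change 1.71 ± 0.60, SE, limma adjusted p = 0.13), and its day 2 values ran from 0.57 to 3.72. A fit of the 8 compared samples alone gave an adjusted p = 7.58e-04. The other members that were not called were Nrgn (0.88), Zfpm1 (0.76), Clec1b (0.60), Ppbp (0.51) and Fli1 (0.23). After quantile normalization the change of Ppbp was below 0, at -0.20 (limma adjusted p = 0.87). The count of called platelet members was 2 after quantile normalization, with a median change of 0.57. It was 0 without day 1 replicate 2, 1 without day 1 replicate 1, day 1 replicate 4 or untreated replicate 4, 3 without untreated replicate 2, 4 without untreated replicate 1 or 3, and 6 without day 1 replicate 3, while the median change stayed between 1.04 and 1.21.

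**Figure D2:**
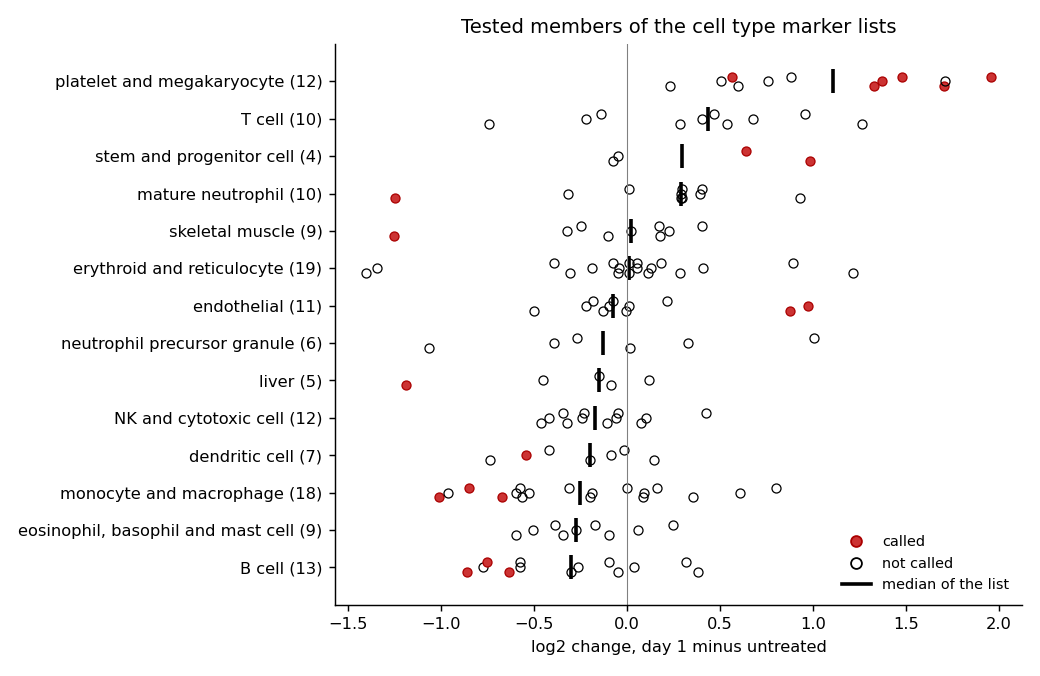
Each circle is a tested gene of a cell type marker list, placed by its log2 change (day 1 minus untreated); filled circles passed limma at an adjusted p under 0.05 and the bar is the median of the list, with the number of tested genes in brackets. With the deposited scaling the 12 platelet genes all lie above 0, with a median of 1.11, while the B cell list has the lowest median, -0.30.

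Calls in the adhesion and cytoskeleton lists were few and went both ways. Among 23 tested integrins and homing receptors, 3 rose (Itga6, Itga2b and Itgb1) and 1 fell (Ccr9), with a median change of 0.00. Itga6, the alpha 6 chain of laminin receptors, had 0.51, -0.40 and 1.10 in the 3 untreated samples that gave a value and 2.10, 3.68, 1.74 and 2.45 at day 1. Its change of 2.09 ± 0.44 (SE, limma adjusted p = 0.027) stayed called only without untreated replicate 3 or day 1 replicate 3 when 1 sample was left out (otherwise adjusted p up to 0.089). Itgb1, the beta 1 chain with which it pairs, went from 1.20, 1.26, 0.83 and 1.04 to 2.21, 2.08, 1.70 and 2.14, a change of 0.95 ± 0.24 (SE, adjusted p = 0.040) that was 0.48 after quantile normalization (adjusted p = 0.30). Itgb1 stayed called only without day 1 replicate 3, with limma adjusted p otherwise up to 0.13. The count of called integrins and homing receptors was 0 without untreated replicate 4, day 1 replicate 2 or day 1 replicate 4, 1 or 2 without untreated replicates 1, 2 and 3 or day 1 replicate 1, and 4 without day 1 replicate 3.

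Of 46 tested tubulin, actin and myosin genes and their partners, 3 rose and 1 fell, with a median change of 0.11. Tmsb4x, thymosin beta 4, which holds actin monomers, had scattered untreated values of 1.85, 0.23, 1.56 and 0.82 and close day 1 values of 2.86, 2.79, 2.74 and 2.76. Its change was 1.67 ± 0.32 (SE, limma adjusted p = 0.014), and 1.09 after quantile normalization (adjusted p = 0.10). Zyx, which encodes the focal adhesion protein zyxin, rose by 1.19 ± 0.22 (SE, adjusted p = 0.013), and its change was 0.78 after quantile normalization (adjusted p = 0.056). Tubb3, a beta tubulin, rose by 0.57 (adjusted p = 0.048; 0.41 with adjusted p = 0.11 after quantile normalization), and Tuba3a, an alpha tubulin, fell by 1.08 (adjusted p = 0.037). The other tested members, including Actb (0.31), Actg1 (-0.05), Cfl1 (0.22), Pfn1 (0.03) and Vcl (0.14), did not pass. The platelet rise given above stands beside these genes, since platelets carry integrins and actin-binding proteins too, and its part in their change was not tested. Of the 4 calls, 0 were left without day 1 replicate 1, and 1 without untreated replicate 4, day 1 replicate 2 or day 1 replicate 4.

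Among ligands and receptors of the EGF family, the ligand Ereg (epiregulin) was the 1 called member of 7 tested, all 7 with changes above 0 and a median of 0.29. Ereg measured 0.30, 1.32, -0.25 and 0.62 in the untreated samples and 1.83, 2.89, 2.65 and 2.45 at day 1. The groups did not overlap, and the change was 1.96 ± 0.42 (SE, limma adjusted p = 0.022). It was 1.44 after quantile normalization (adjusted p = 0.066), and the call was lost without untreated replicate 1, 3 or 4 or day 1 replicate 2 or 4 (adjusted p up to 0.081). Hbegf, another ligand of the family, had a change of 0.70 (adjusted p = 0.053), and the receptor Egfr had 0.29.

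Other large rises are given gene by gene. Pcp4l1, a small protein related to a calmodulin regulator, had 1.08, 1.78, 1.32 and 2.50 untreated and 4.10, 3.68, 3.47 and 4.08 at day 1, a change of 2.16 ± 0.53 (SE, limma adjusted p = 0.040). With 1 sample left out it stayed called only without day 1 replicate 3 (otherwise adjusted p up to 0.13), and it was not called after quantile normalization (change 1.38, adjusted p = 0.13). Serpinb6a, an intracellular inhibitor of serine proteases, went from 0.30, -0.37, 1.29 and 1.41 to 2.01, 2.79, 2.28 and 2.45, a change of 1.73 (limma adjusted p = 0.023). Slc24a3, a calcium, potassium and sodium exchanger, rose by 1.52 (0.90 after quantile normalization), S100a1, a calcium-binding protein, by 1.57, and Rbpms2, an RNA-binding protein, by 1.51 (limma adjusted p = 0.017, 0.019 and 0.017). Serpinb6a and Slc24a3 lost their calls without day 1 replicate 1, 2 or 4, S100a1 likewise, and Rbpms2 without day 1 replicate 2 or 4, with adjusted p up to 0.083, 0.067, 0.065 and 0.056. Serpinb6a was also lost without untreated replicate 1 or 2, Slc24a3 without untreated replicate 4, and S100a1 without untreated replicate 1, 2 or 4.

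**Figure D3:**
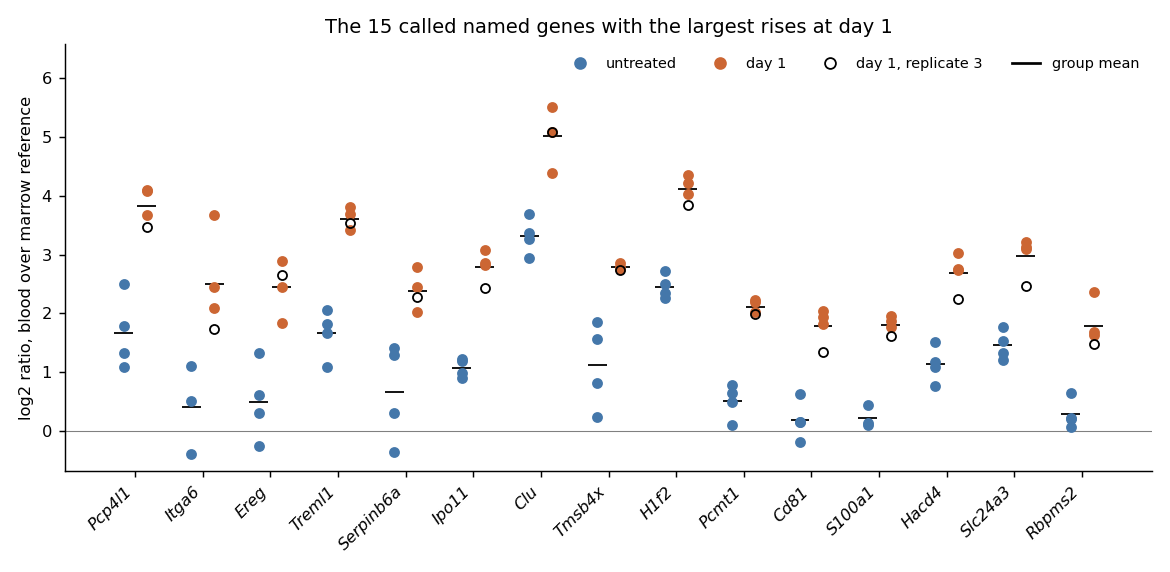
Points are the log2 ratios (blood over marrow reference, vertical axis) of the untreated and day 1 samples for the 15 called named genes with the largest rises, and lines are group means; day 1 replicate 3 is drawn open. In all 15 genes every day 1 sample lies above every untreated sample, and replicate 3 is the lowest treated sample in 11 of them. The genes were picked by these same values. No overlap was found in 132 of the 135 features called higher and in 17.4% of all tested features.

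A smaller group of rises kept its call in each of the 22 alternatives that were run. H1f2, a linker histone, had 2.35, 2.26, 2.71 and 2.49 in the untreated samples and 4.04, 4.22, 3.85 and 4.35 at day 1. Its change was 1.66 ± 0.25 (SE, limma adjusted p = 0.0051) and ranged from 0.88 (quantile normalization) to 1.77. None of the other 12 tested histone genes was called, with the nearest to the threshold on both sides of 0, H2ap at -0.54 (adjusted p = 0.0501) and H2ac4 at 0.69 (adjusted p = 0.054), and a list median of 0.09. Dut, which hydrolyses dUTP and so keeps uracil out of DNA, went from -1.69, -1.44, -1.67 and -1.85 to -0.44, -0.57, -0.81 and -0.30. It rose by 1.13 ± 0.18 (SE, adjusted p = 0.0051) and was the 1 called member of 21 tested genes of DNA replication and nucleotide supply, whose median change was 0.07. Its neighbours in that pathway had lower values at day 1 that did not pass, Rrm2 with -0.86, Tk1 with -0.68 and Tyms with -0.35.

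Cd81, a tetraspanin of lymphocytes and other cells, went from 0.15, -0.19, 0.62 and 0.15 to 1.82, 2.04, 1.34 and 1.94, a change of 1.60 ± 0.25 (SE, limma adjusted p = 0.0051). Ipo11, a nuclear import receptor, measured 0.99, 0.89, 1.19 and 1.22 and then 2.83, 2.86, 2.42 and 3.07, and was the 1 called member of 21 importins, exportins and nucleoporins. Pcmt1, which repairs damaged aspartyl residues of proteins, rose by 1.61 and Hacd4, a dehydratase of fatty acid elongation, by 1.56 (limma adjusted p = 0.0074 and 0.0051), the latter by 0.96 after quantile normalization. The smallest p among named genes belonged to Ufsp1, a protease that processes the ubiquitin-like protein UFM1. It went from -1.04, -0.76, -0.87 and -1.06 to -0.04, 0.05, -0.13 and -0.12, a change of 0.87 ± 0.10 (SE, adjusted p = 0.0014). Trappc2 (1.25), a vesicle tethering subunit, Gatad1 (1.22), a zinc finger protein, Paip2 (1.02), an inhibitor of poly(A)-binding protein, Clcn3 (0.92), a chloride and proton exchanger, and Rbms2 (0.71), an RNA-binding protein, also kept their calls.

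In the cytochrome P450 list, called genes moved in both directions. Whether the called members act on cyclophosphamide was not tested. Cyp2b10, a P450 best known as a drug-induced liver enzyme, had -0.16, -0.19, -0.33 and 0.10 in untreated samples and 1.54, 0.88, 1.22 and 1.43 at day 1. Its change of 1.42 ± 0.24 (SE, limma adjusted p = 0.0077) kept its call in all 22 alternatives. Cyp2b9, a close relative, rose by 0.50 (adjusted p = 0.042), and Cyb5a, which passes electrons to P450 enzymes, by 1.06 (adjusted p = 0.023). Cyp27a1, the sterol 27-hydroxylase, fell by 1.10 (adjusted p = 0.038). These were the 4 called genes of 42 tested in the P450 list, whose median change was -0.03. Cyp2b9 and Cyp2b10 are similar in sequence, as are Serpina1a and Serpina1e, and whether a probe of either pair also binds the other was not tested. Without untreated replicate 3 or 4, or without day 1 replicate 1 or 2, Cyp2b10 was the 1 called P450 list member.

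In the aldehyde and glutathione list, 3 of 28 tested genes fell and 0 rose, with a median change of 0.01. Mgst1, the microsomal glutathione transferase, went from -0.39, -0.67, -0.35 and -0.56 to -1.39, -1.41, -1.68 and -1.76, a fall of 1.07 ± 0.15 (SE, limma adjusted p = 0.0051) that held in all 22 alternatives. Gstt3, a theta class transferase, had -1.10 (adjusted p = 0.023) and Aldh7a1, an aldehyde dehydrogenase, -0.76 (adjusted p = 0.046). Gsto1, an omega class transferase, had a positive change of 1.28, short of the threshold (adjusted p = 0.054). Aldh1a1, a main enzyme of cyclophosphamide detoxification, had values in 0 of the 8 samples, and Aldh3a1 in 1 untreated and 1 day 1 sample, so neither was tested. The glutathione peroxidases split: Gpx4, which reduces lipid peroxides, went from 0.26, 0.22, 0.40 and -0.08 to 1.21, 1.16, 1.11 and 1.56 (change 1.06, limma adjusted p = 0.013). Gpx1, the cytosolic peroxidase, went from -0.39, -0.48, -0.66 and 0.33 to -1.07, -1.02, -1.34 and -0.98 (change -0.81, limma adjusted p = 0.031). Gpx4 lost its call without day 1 replicate 4 (adjusted p = 0.052), and Gpx1 kept its call only without untreated replicate 2 or 3. Of the 3 falls in the aldehyde and glutathione list, Mgst1 alone was left without untreated replicate 3 or 4 or without day 1 replicate 1, 2 or 4.

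The called monocyte and macrophage genes were lower at day 1. Of 18 tested members 3 were called lower and 0 higher. The median change was -0.25, and 6 of the 18 changes were above 0. Mpeg1, the macrophage perforin, measured 1.14, 0.54, 1.05 and 1.21 in the untreated samples and 0.34, 0.39, -0.18 and 0.01 at day 1, a fall of 0.85 ± 0.16 (SE, limma adjusted p = 0.013). Adgre1, the F4/80 antigen, went from 1.10, 0.46, 1.27 and 1.23 to 0.53, 0.54, -0.03 and 0.34. Untreated replicate 2 fell among the treated samples for Adgre1, and its fall of 0.67 was close to the threshold (adjusted p = 0.047). Lyz2, lysozyme, had 0.19, 0.90 and 0.93 in 3 untreated and -0.31, -0.20 and -0.51 in 3 day 1 samples, a fall of 1.01 (limma adjusted p = 0.027). Other members lay on both sides without passing, from Chil3 at -0.96 to C1qb at 0.80. Without untreated replicate 4 or day 1 replicate 4, 0 of the list were called, and without untreated replicate 3, day 1 replicate 1 or day 1 replicate 2, 1 was. After quantile normalization 5 were called lower. Without day 1 replicate 3, 2 were called lower and 1 higher.

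Calls among lysosomal genes went both ways. Of 29 tested genes of the lysosome and its proton pump, 3 fell and 1 rose, with a median of -0.03. Psap, the precursor of the saposins, had a change of -1.02, Arsb, arylsulfatase B, -0.79, and Ctsh, cathepsin H, -0.59 (limma adjusted p = 0.040, 0.020 and 0.014), while Atp6v1f, a subunit of the pump, rose by 0.82 (adjusted p = 0.014). Outside that list, Pycard, the ASC adaptor of inflammasomes, went from 0.70, 0.31, 0.60 and 0.48 to -0.13, 0.01, -0.25 and -0.21. It fell by 0.67 ± 0.12 (SE, adjusted p = 0.010), and this call held in all 22 alternatives. Ms4a8a, a membrane protein of the MS4A family, fell by 0.97 ± 0.15 (SE, limma adjusted p = 0.0051) and likewise held. Psap kept its call only without untreated replicate 2, Arsb only without untreated replicate 2, untreated replicate 3 or day 1 replicate 3, and the limma adjusted p otherwise reached 0.12 and 0.068. Monocytes express several of these genes, and the part of the monocyte values above in them was not tested.

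Of the B cell list 3 of 13 tested members fell and 0 rose, with a median change of -0.30. The median ratio of the list lay between 0.01 and 0.35 in untreated samples and between -0.22 and -0.16 at day 1. Pou2af1, a transcriptional coactivator of B cells, measured -0.39, -0.59, -0.89 and -0.21 and then -1.22, -1.37, -1.47 and -1.46, a fall of 0.86 ± 0.16 (SE, limma adjusted p = 0.016). Fcmr, the receptor for IgM, went from 0.84, 0.78, 1.25 and 1.11 to 0.43, 0.50, -0.07 and 0.12, a fall of 0.75 (adjusted p = 0.020). Tnfrsf13b, the TACI receptor, fell by 0.63 (adjusted p = 0.029). The surface markers Ms4a1 (-0.58), Cd72 (-0.77) and Cd22 (-0.10) did not pass, and Cd79a had too few values to be tested. Without untreated replicate 4 or day 1 replicate 4, 0 of the B cell list were called, and without untreated replicate 3 or day 1 replicate 2, 1 was.

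In the mature neutrophil list Cd177 alone was called of 10 tested, and the list's median was on the other side, at 0.29. Cd177, a surface protein of neutrophils, measured -2.63, -2.56, -2.22 and -2.35 in the untreated samples and -3.54, -3.46, -3.90 and -3.85 at day 1. Its fall of 1.25 ± 0.22 (SE, limma adjusted p = 0.010) held with each sample left out and not after quantile normalization (change -0.94, adjusted p = 0.059) or with columns scaled to one spread (adjusted p = 0.16). The neutrophil receptors Trem1 (0.93), Csf3r (0.39) and Fpr2 (0.29) and the alarmin S100a9 (0.01) did not pass. None of 6 precursor granule genes was called by limma (2 at an unadjusted p under 0.05), with Ctsg at 1.01 and Ctsc at -1.06.

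None of 10 tested T cell genes and none of 12 NK and cytotoxic cell genes was called, with medians of 0.43 and -0.17, although 5 and 3 of them had an unadjusted limma p under 0.05. The members nearest to the threshold differed in direction: Tbx21, a transcription factor of NK and T cells, had a change of 0.42 (limma adjusted p = 0.05035), Izumo1r, a folate receptor family member of regulatory T cells, -0.74 (adjusted p = 0.053), and Ctla4, an inhibitory T cell receptor, 1.27. Ctla4 measured -0.20, -0.31, 0.59 and 0.55 untreated and 1.81, 1.23, 1.39 and 1.25 at day 1. Its groups did not overlap, and the SE of its change was 0.35 (limma adjusted p = 0.055). Cd4 had 0.29 and Cd8b1 -0.14, and Cd3e had no value in the 8 samples. The 9 tested genes of eosinophils, basophils and mast cells gave 0 calls by limma (5 at an unadjusted p under 0.05), with a median of -0.27, and the dendritic cell list 1 of 7, the chemokine receptor Ccr9 (-0.54, limma adjusted p = 0.045).

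Progenitor and endothelial lists each gave a pair of rises. Adgrg1, an adhesion receptor of stem cells, also found on cytotoxic lymphocytes, went from 0.13, 0.15, 0.38 and -0.39 to 1.34, 1.03, 0.62 and 1.22 (change 0.99 ± 0.18, SE, limma adjusted p = 0.013). Meis1, a homeobox factor of stem cells and megakaryocytes, went from -0.64, -0.50, -0.98 and -1.07 to -0.12, -0.27, -0.02 and -0.22 (change 0.64, limma adjusted p = 0.045). Adgrg1 lost its call without day 1 replicate 4 (adjusted p = 0.052), and Meis1 kept it only without untreated replicate 2. The other tested members of that list, Mecom (-0.07) and Flt3 (-0.05), did not pass. Of 11 endothelial genes, Kdr, a receptor of VEGF, had a change of 0.97 and Plvap, a protein of vessel fenestrae, 0.88 (adjusted p = 0.036 and 0.045), against a list median of -0.08. Day 1 replicate 3 stood apart for Kdr at -0.23, among the untreated values, while the other treated samples lay between 0.65 and 0.78. Both endothelial calls were lost with any 1 sample other than day 1 replicate 3 left out, with limma adjusted p up to 0.13 and 0.15, and the core vessel markers Pecam1 (0.00) and Cdh5 (-0.10) did not pass.

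The lists of p53 targets, DNA repair and cell division had no member past the threshold by limma. Of 12 p53 targets 0 were called (4 at an unadjusted p under 0.05), with a median of -0.02, although Cdkn1a, the cell cycle inhibitor p21, had a change of -0.84 ± 0.34 (SE, adjusted p = 0.19). Its values were 1.82, 1.54, 2.41 and 2.28 untreated and 1.12, 1.65, 0.28 and 1.64 at day 1, with untreated replicate 2 inside the treated range. After quantile normalization Cdkn1a was called lower (change -1.22, limma adjusted p = 0.029). In that setting 1 p53 target was called higher and 1 lower. Tnfrsf10b, a death receptor, had -0.66 (adjusted p = 0.071), and Trp53inp1, a stress protein, 0.60 (adjusted p = 0.11). None of 16 DNA repair genes, 23 BCL2 family and caspase genes, 19 interferon-stimulated genes and 16 immediate early genes was called by limma, and 2, 4, 2 and 2 of them had an unadjusted p under 0.05. Of 20 cell division genes 0 were called (6 at an unadjusted p under 0.05), with a median of -0.33 and values such as -1.27 for Nusap1 (adjusted p = 0.057) and -1.15 for Cdc20 (adjusted p = 0.28). Zwint, a kinetochore gene that is not in that list and was picked after its values were seen, measured -0.07, -0.23 and 0.09 in 3 untreated samples and 0.91, 0.98, 0.63 and 0.94 at day 1 and was called higher (change 0.93 ± 0.15, SE, limma adjusted p = 0.0087). No member was called by limma among 33 cytosolic ribosomal proteins, 39 mitochondrial ribosomal proteins, 42 respiratory chain genes, 23 proteasome subunits and 38 splicing genes, and their medians lay between -0.09 and 0.02. At an unadjusted p under 0.05 these lists held 6, 5, 7, 3 and 3 genes.

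The called genes with the largest falls included single members of the muscle list (Myf6, 1 of 9 tested, list median 0.02) and the liver list (Serpina1a, 1 of 5, list median -0.15). Myf6 is a muscle transcription factor, Syt9 a synaptotagmin of secretory vesicles, Serpina1a a liver antiprotease, Daw1 a factor of cilia assembly, Lce1d a skin barrier protein and Klk1b5 a kallikrein. Myf6 measured 0.35, 0.46, 0.83 and 0.85 untreated and -1.21, -1.09, 0.25 and -0.47 at day 1, a change of -1.25 ± 0.27 (SE, limma adjusted p = 0.022). Syt9 measured 0.46, 0.46, 0.87 and 1.04 and then -0.99, -1.01, 0.42 and -0.32, a change of -1.18 (limma adjusted p = 0.034). In 10 of the 15 named genes with the largest falls, day 1 replicates 1 and 2 were the lowest treated samples, and in 12 of the 15 replicate 3 was the highest. Alas2, the first enzyme of erythroid heme synthesis, had the same order of samples, with -0.47, -0.30, 0.39 and 0.77 untreated and -1.73, -1.60, -0.73 and -1.15 at day 1. Its change of -1.40 ± 0.40 (SE) did not pass (adjusted p = 0.063), none of the 19 tested erythroid genes did (4 at an unadjusted limma p under 0.05), and their median was 0.01. Alas2 was called in 7 of the 22 alternatives, among them quantile normalization (change -1.36, limma adjusted p = 0.045). Of the 19 erythroid genes 11 had changes above 0, and the changes ran from that of Alas2 to 1.21 for Klf1. Myf6 and Syt9 lost their calls without untreated replicate 3 or 4 or without day 1 replicate 1, 2 or 4 (limma adjusted p up to 0.088 and 0.13). The part of red cell RNA in these falls was not tested. The other tested members of the muscle and liver lists did not pass, among them Ckm (0.17), Myog (0.18) and Apoa1 (0.12).

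**Figure D4:**
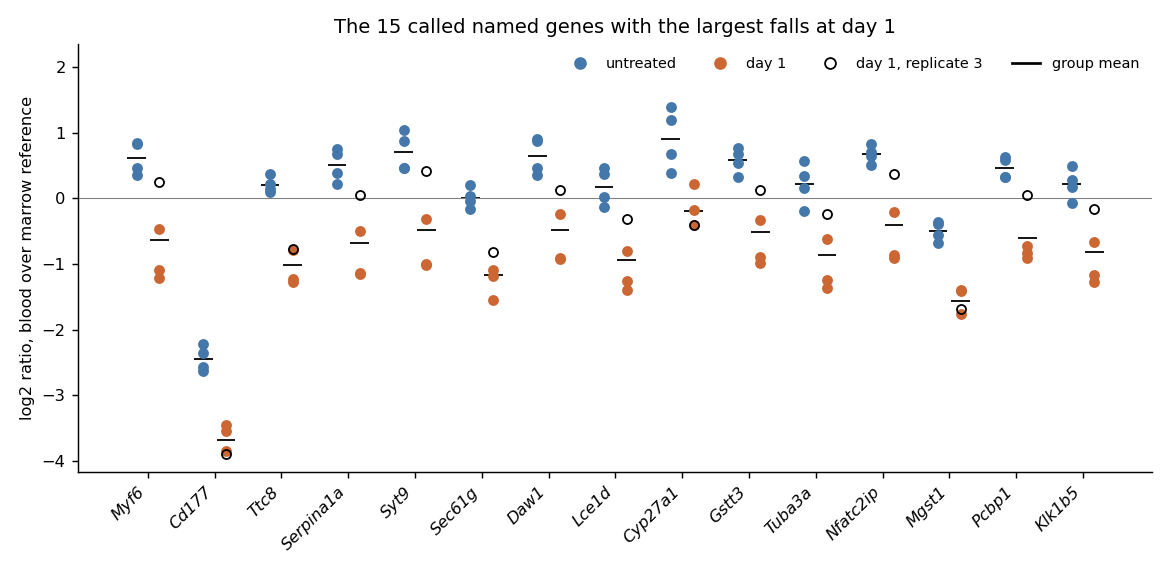
Points are the log2 ratios (blood over marrow reference, vertical axis) of the untreated and day 1 samples for the 15 called named genes with the largest falls, and lines are group means; day 1 replicate 3 is drawn open. Replicate 3 is the highest treated sample in 12 of the 15 genes.

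Further falls are given gene by gene. Sec61g, a subunit of the channel that brings proteins into the endoplasmic reticulum, measured 0.04, 0.21, -0.04 and -0.16 and then -1.10, -1.55, -0.81 and -1.18. Its change of -1.17 ± 0.20 (SE, limma adjusted p = 0.010) held in all 22 alternatives, and it was the 1 called member of 30 tested genes of the secretory entry pathway. Ttc8, a part of the ciliary BBSome complex, went from 0.10, 0.22, 0.14 and 0.37 to -1.27, -1.23, -0.77 and -0.78 (change -1.22, limma adjusted p = 0.014), and lost its call without untreated replicate 4, day 1 replicate 1 or day 1 replicate 2 (adjusted p up to 0.058). Lrat, which stores retinol as an ester, fell by 0.76 ± 0.13 (SE, limma adjusted p = 0.010) and held in all 22 alternatives. Brd3, a reader of acetylated histones, could not be tested: it had a value in all 4 day 1 samples (0.20, 0.45, 0.30 and 0.65) and in 0 untreated ones, and Gpcpd1, a phosphodiesterase, the reverse (0.22, -0.06, 0.44 and 0.11 untreated). Both were singled out after their values were seen, and the reason for empty probes is not stated.

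The values at later days stand beside those of day 1, and all share the untreated samples. The genes were picked by their day 1 changes, a choice that favours smaller changes on the other days. The same choice bears on the differences between day 2 and day 1. Over the 15 largest named rises the day 1 changes lay between 1.51 and 2.16, the day 2 changes against untreated between 0.23 and 1.35, and the day 5 changes between -0.62 and 1.54. For Ereg the changes were 1.96, 0.51 and 0.09, for Cd81 1.60, 0.43 and 0.22, and for H1f2 1.66, 0.63 and 1.46. For Dut they were 1.13, 0.55 and 1.20. Directly between day 2 and day 1, Cd81 had a difference of -1.17 (limma adjusted p = 0.042) and Cyp2b10 of -1.06 (adjusted p = 0.046).

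Over the 15 largest named falls the changes ran from -1.25 to -1.03 at day 1, from -2.87 to -0.48 at day 2 and from -0.33 to 0.65 at day 5. For Syt9 they were -1.18, -2.87 and 0.65, for Myf6 -1.25, -2.64 and 0.43, and for Pycard -0.67, -0.73 and -0.65. Syt9 had a difference of -1.68 between day 2 and day 1 (limma adjusted p = 0.022) and Myf6 of -1.39 (adjusted p = 0.030). Cd177 and Mgst1 had positive differences of 0.63 and 0.58 between day 2 and day 1 that did not pass (adjusted p = 0.24 and 0.087).

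**Figure D5:**
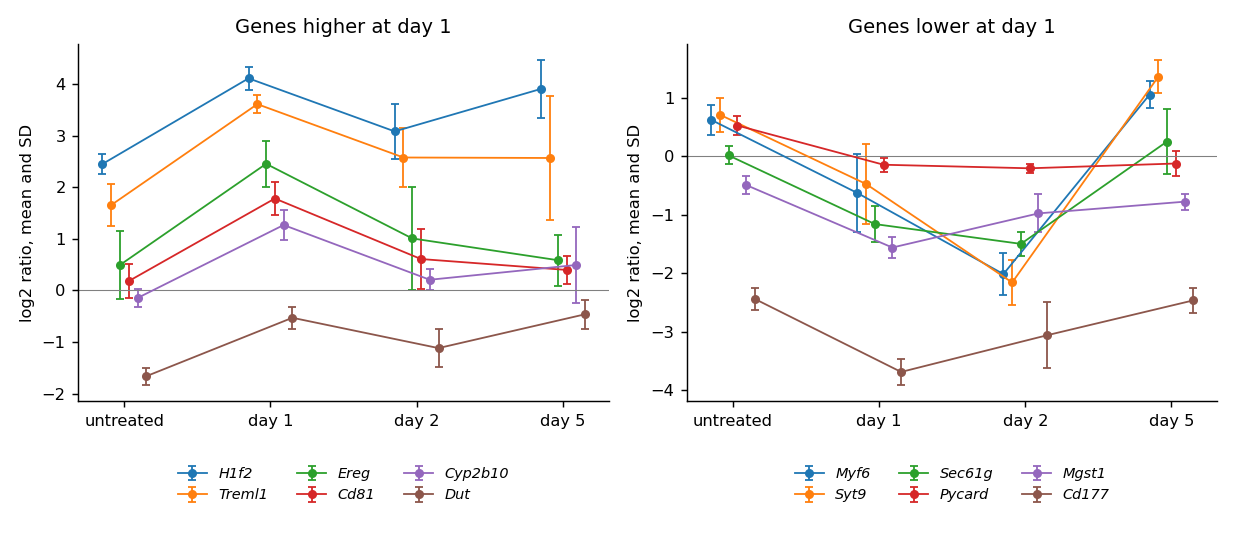
Points are group means of the log2 ratio (blood over marrow reference) with SD bars, over 4 untreated, 4 day 1, 4 day 2 and 3 day 5 samples, for 6 genes higher and 6 genes lower at day 1. The genes were picked among those called at day 1. Ereg and Cd81 stand highest at day 1, H1f2 and Dut are near their day 1 level again at day 5, and Myf6 and Syt9 are lowest at day 2.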

How the data were processed

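Blood leukocyte RNA and a marrow reference were co-hybridised on 2-colour arrays. The deposited values are log2 ratios of Cy5 (blood) over Cy3 (reference), per the labels' dyes, with base 2 assumed; no label states the scanner, background correction, normalization, filter or genome build. The reference is labelled both as untreated and as treated marrow, and a constant reference drops out of differences between groups. The table held 13443 probes in 30 columns, and 53.1% to 62.7% of probes had a value in untreated columns and 46.3% to 69.9% in day 1 columns. The number of arrays limits the precision.

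Technical replicates (r between 0.835 and 0.950 in these 8 samples) were averaged first, then probes of 1 symbol. Probes were named by the platform annotation: 10032 had 1 symbol, 170 several and 3241 none. Features with values in at least 3 of 4 samples of both groups were tested with limma 3.58.1 in R 4.3.3 (lmFit and eBayes, 1 mean per group over all 15 samples, Benjamini-Hochberg over the 7160 features). Samples are independently harvested per the labels. On simulated data with 200 of 7160 features changed, 24.7%, 86.4% and 99.0% of changes of 0.5, 1 and 2 log2 units were recovered. The simulated noise was normal and independent between features and samples, with 1 spread per feature for all groups. It held no deviating sample and no shift shared by features, so the rates do not cover such effects. Values are printed in replicate order, 1 to 4.

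Named genes are the 15 largest rises and falls and the 10 smallest adjusted p in each direction among called symbols, called members of 46 gene lists, up to 4 examples per list of 5 or more tested genes, and the first 3 tested genes of each marker list. Genes beyond this rule are examples chosen after their values were seen. The comparison and lists were chosen with earlier results of these data known. Whether replicate numbers pair the samples could not be settled, and the fit has no block.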

Additional observations from a re-analysis of the deposited data

Results flagged for a closer look

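A sample standing far from the other 3 of its group was found in 12 of 231 groups of 4 samples examined (5.19%), over the called genes of the naming rule and the medians of the gene lists, where chance gives about 1 in 20. Day 1 replicate 3 stood low for Kdr at a log2 ratio of -0.23, with the others between 0.65 and 0.78, and for Slc24a3 at 2.47, with the others between 3.10 and 3.21. Untreated replicate 4 stood low for Clcn3 at -0.22, with the others between 0.15 and 0.20, and for F2rl3 at -0.22, with the others between 0.13 and 0.17. For Rbms2, untreated replicate 3 stood high at -0.20, with the others between -0.31 and -0.30. Ube2f, a conjugating enzyme for NEDD8, had a high untreated replicate 1 at 0.25, with the others between 0.18 and 0.19, and a high day 1 replicate 2 at -0.14, with the others between -0.26 and -0.24.

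Among the list medians, untreated replicate 4 stood low for the neutrophil precursor granule list at -2.24, with the others between -1.66 and -1.57, and high for the MHC class I presentation list at 0.65, with the others between 0.11 and 0.19. Untreated replicate 3 stood high for the eosinophil, basophil and mast cell list at 0.23, with the others between 0.02 and 0.04. Untreated replicate 2 stood high for the peroxide and thioredoxin list at -0.073, with the others between -0.21 and -0.19. Day 1 replicate 2 stood high for the mitochondrial import and dynamics list at 0.23, with the others between -0.07 and -0.02.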

How the results depend on the processing

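Of 7160 features, 263 were called (135 higher, 128 lower). Calls (higher and lower) were 419 (lower 252) after quantile normalization, 501 (246 and 255) with the 8 samples alone, 795 (415 and 380) with array weights, 710 (338 and 372) with the blood sample as a random effect, 458 (236 and 222) with a spread for each group, and 489 (229 and 260) with columns scaled to one spread, an alternative added after seeing the data. With the replicate block they were 114 (70 and 44), 111 of them among the 263. Same-numbered samples had correlations of their deviations from -0.23 to 0.13. For untreated replicates 1 and 4 the same-numbered day 1 sample was the best match, and for replicates 2 and 3 it was not. So few samples cannot show whether the numbers pair them. With 1 sample left out the calls ranged from 42 to 400 (higher 28 to 177, lower 14 to 223). Median centring, both filters on missing values, a robust prior, either technical replicate alone, each probe on its own and the added filter requiring values at all 4 times gave 192 to 340. Of the 73 called genes of the naming rule, 62 stayed called after quantile normalization and 18 in all 22 alternatives, and 0 changed sign in any. Genes that were not called also depended on the fit. Of the 152 genes of the naming rule without a call, 61 were called in 1 or more alternatives. Empty probes and 4 samples a group limit what could be tested.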

Other observations

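The called genes given here were picked after their values were seen, and no list of them was tested. Plek, the platelet kinase substrate pleckstrin, measured 1.98, 1.85, 2.47 and 2.46 in the untreated samples and 3.05, 3.17, 2.76 and 3.20 at day 1 (change 0.86, limma adjusted p = 0.048). Rgs10, a regulator of G protein signalling, measured 1.78, 1.52, 1.81 and 1.38 and then 2.97, 2.75, 2.24 and 3.27 (change 1.19, limma adjusted p = 0.019). Tbxas1, thromboxane synthase, had a value in 3 samples of each group and a change of 0.74 (limma adjusted p = 0.046). In all 3 genes the day 1 samples lay above the untreated ones. The same held for 132 of the 135 features called higher, and 17.4% of all tested features had no overlap in either direction. How far the calls of these 3 genes hold in the alternatives was not examined.

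Hif1a, a subunit of the hypoxia factor, measured 1.12, 0.77, 0.95 and 0.88 and then 1.76, 2.11, 1.61 and 1.67 (change 0.86, limma adjusted p = 0.033). Socs1, an inhibitor of cytokine signalling, rose by 0.64 (limma adjusted p = 0.034) and Mif, a cytokine, by 0.75 (limma adjusted p = 0.028). Sema4d, a semaphorin of lymphocytes, went from 0.37, 0.40, 0.74 and 0.86 to -0.76, -0.65, 0.15 and -0.13 (change -0.94, limma adjusted p = 0.023), and Id3, an inhibitor of DNA binding that acts in lymphocytes, had a change of -0.75 (limma adjusted p = 0.044). Folr2, a folate receptor of macrophages, had a change of -0.81 (limma adjusted p = 0.018).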
